A study of Mus musculus with 12 samples.

Results

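The genes described here were 129 very long protein-coding genes of mouse liver, each with an annotated genomic span of 300 kb or more. They were chosen by 3 conditions: the span from gene start to gene end on build GRCm38, a level of at least 5 TPM (transcripts-per-million units, summed over the transcripts of a gene) in at least 4 of the 12 livers, and the leaving out by name of Cask, Immp2l, Nfia, Rora, Thrb and Esr1. The annotation held 567 protein-coding genes of this span, 565 of them were quantified, and 135 reached the TPM limit, including the 6 left out. The series as a whole gave 31114 genes, of which 8846 passed the same limit and were tested. The TPM limit used the levels of all groups, so that levels of the members near 5 TPM are set by the choice and are no finding.

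RNA of whole livers was sequenced from 12 hFIX-R29X mice, which model hemophilia B. All animals lacked mouse F9 and carried a human FIX minigene with a nonsense codon under the human transthyretin promoter, which acts mainly in hepatocytes. The study asked how far lowering Upf3b, a factor of nonsense-mediated mRNA decay, changes the rest of the liver transcriptome. There were 3 groups of 4 mice of 8 to 14 weeks, each with 2 females (replicates 1 and 2) and 2 males (replicates 3 and 4). DPBS animals received the vehicle. Control-GalNAc-ASO animals received an antisense oligonucleotide (ASO) of scrambled sequence at 15 mg/kg. Upf3b-GalNAc-ASO animals received an ASO against Upf3b at 10 mg/kg. Each animal had 6 doses, given every 5 days, and was killed 48 h after the last. GalNAc is a sugar ligand that carries an ASO into hepatocytes through the asialoglycoprotein receptor, while the RNA came from the whole organ. The 2 ASOs differed in sequence and dose, so that an effect of lower Upf3b and another effect of this ASO cannot be told apart.

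A gene of this size is almost all intron. RNA polymerase II needs a long time to cross it, and its introns, many of which are removed while the transcript is still being made, have to be spliced out over long distances. Very long genes are known above all from brain and muscle, and those active in liver include enzymes, transporters, phosphatases, adhesion proteins and transcription factors. ASOs of the gapmer type pair with RNA and recruit RNase H1, which cleaves the paired strand in the nucleus as well as in the cytoplasm.

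The sequences of the 2 ASOs were set against the spliced transcripts of the genes tested, to show how close any very long gene comes to the target site. All are written 5′ to 3′. The first 2 lines are the ASOs, in capitals throughout, and the third is the Upf3b site in lower case. The last 2 lines are windows in spliced transcripts of very long genes (GENCODE M21) with unbroken pairing of 11 bases to the Upf3b-ASO. Capitals mark that unbroken run, and bases outside it that also pair are in lower case.

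Upf3b-ASO: GGATATAGATGTAACG
Control ASO: GGCCAATACGCCGTCA
Upf3b site: cgttacatctatatcc
Agmo window: tctcACATCTATATCa
Celf2 window: gtcTACATCTATATac

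The full 16-base site was found in 1 of 8840 genes with a spliced sequence, which was Upf3b itself, at positions 2034 to 2049 of transcript ENSMUST00000076265. No very long gene held a site with 0, 1 or 2 mismatches to either ASO. In all genes tested, 5 had a site with 2 mismatches to the Upf3b-ASO and 1 to the control ASO. The median of the longest unbroken pairing with the Upf3b-ASO over the 129 genes was 8 bases, against 7 over all genes. A pairing of 9 bases or more was held by 4 of the 45 very long genes that were lower in Upf3b-ASO livers (8.89%) and by 23 of the 84 that were not (27.4%). The longest pairing was taken over all transcripts of a gene, so that it can grow with the sequence searched. This was not accounted for, and the difference was not tested. Introns, which make up nearly all of these genes, were not searched. Upf3b itself, the check of the labels, was at 0.651 to 1.58 CPM (counts-per-million units) in Upf3b-ASO livers and at 7.93 to 13.4 CPM in all others.

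The very long genes as a group were lower in Upf3b-ASO livers. They held 0.8285, 0.781, 0.778 and 0.770% of all estimated counts in DPBS replicates 1 to 4. The shares were 0.803, 0.784, 0.510 and 0.724% in control ASO livers and 0.590, 0.554, 0.524 and 0.448% in Upf3b-ASO livers. In whole liver, fewer cells of a type and less RNA per cell cannot be told apart. The highest Upf3b-ASO liver stayed under every other liver except control ASO replicate 3. That male stood apart from the rest of its group in many genes. Its summed level of 16 acute-phase genes was 66695 CPM, against 10438 to 17606 CPM in DPBS and 11304 to 14342 CPM in Upf3b-ASO livers, and its part in the results below was tested by leaving it out. The log2 ratio of each gene to the mean of the DPBS livers had a median over the very long genes of -0.37, -0.51, -0.56 and -0.73 in Upf3b-ASO replicates 1 to 4. The same median over all genes tested lay between -0.00 and 0.01 in these livers. In control ASO livers the median of the very long genes was 0.01, -0.01, -0.38 and -0.13, so that replicate 3 lay among the Upf3b-ASO livers. Total estimated counts per liver ran from 13277892 to 20387682, and the 4 lowest totals were those of the Upf3b-ASO livers. What part depth plays in the shares was not tested.

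Protein-coding genes of shorter span had medians closer to 0. From under 10 kb to 10 to 30, 30 to 100, 100 to 300 and 300 kb and over, the median log2 fold change of Upf3b-ASO over control ASO was 0.03, 0.02, -0.05, -0.19 and -0.45. The shares called lower were 3.37, 3.75, 6.50, 15.3 and 34.9%, and the shares called higher were 4.94, 5.21, 4.27, 2.05 and 0%. Against DPBS the medians were 0.06, 0.04, -0.03, -0.18 and -0.52 in the same order. Across the 8499 protein-coding genes, Spearman's rho between span and log2 fold change was -0.20, a description in which all genes share the same 8 livers. Among the 129 very long genes alone it was -0.21, and for control ASO against DPBS it was -0.07 across the protein-coding genes and -0.22 among the 129.

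**Figure D1:**
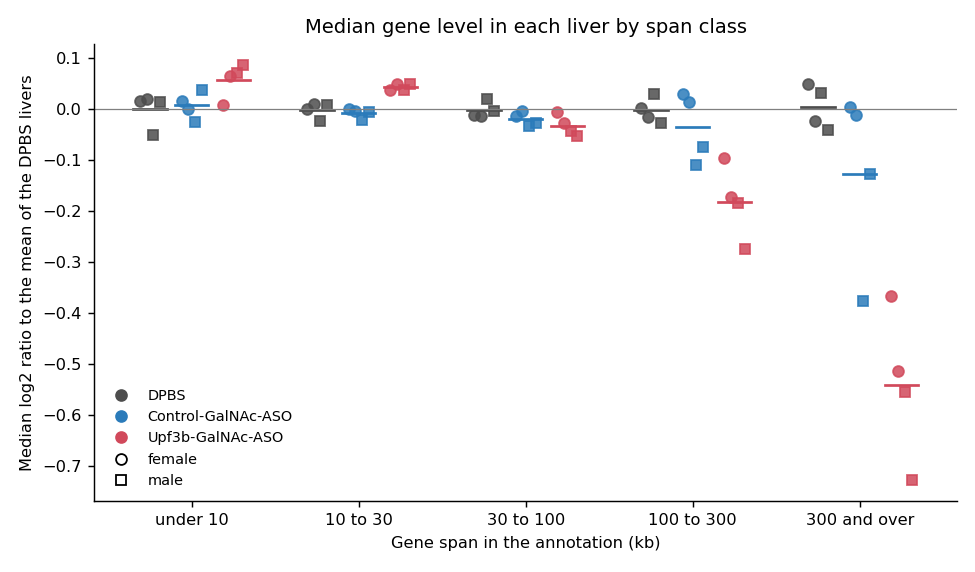
Median log2 ratio of protein-coding genes to the mean of the DPBS livers (vertical axis) in each liver, by annotated gene span in kb (horizontal axis). Each point is 1 liver, circles are females and squares males, and bars are group means. At 300 kb and over the Upf3b-ASO livers lie from -0.73 to -0.37, and control ASO replicate 3 lies at -0.38.

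**Figure D2:**
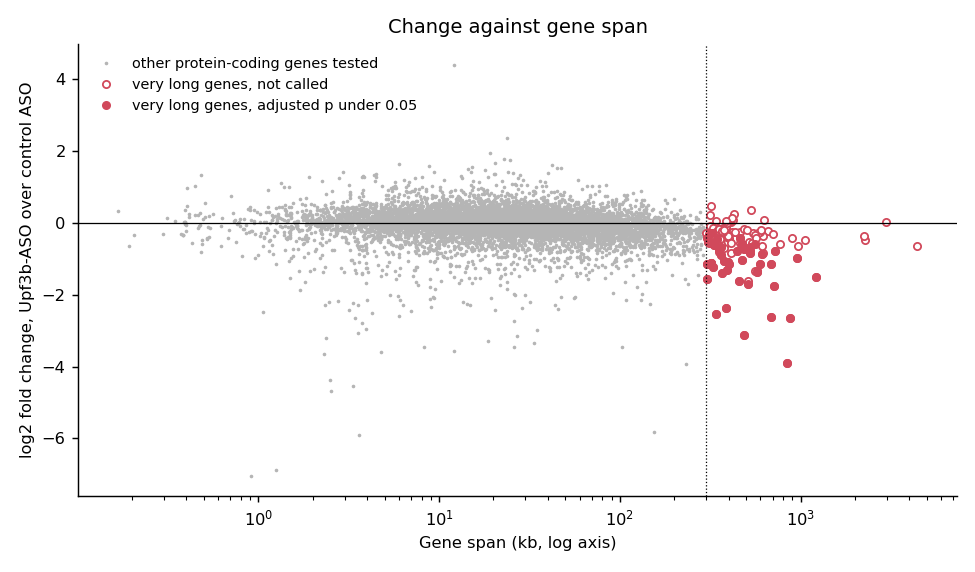
The log2 fold change of Upf3b-ASO over control ASO (vertical axis) against gene span in kb on a log axis (horizontal axis), 1 point per protein-coding gene tested. Filled red points are the 45 very long genes with an edgeR adjusted p under 0.05 and open red points the other 84. The dotted line is the 300 kb limit, to the right of which all called genes lie under 0.

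To determine which very long genes changed, each was tested in a fit across all 8846 genes. Against control ASO, 45 of the 129 (34.9%) were lower in Upf3b-ASO livers and 0 were higher (edgeR adjusted p under 0.05). Over all genes tested, 5.95% were called lower and 4.34% higher. At an unadjusted p under 0.05, 82 very long genes were lower and 0 higher, where 28.0% of all genes passed in either direction. DESeq2 called 61 lower at an adjusted p under 0.05, and 10.4% of all genes lower. The median log2 fold change was -0.45 (quartiles -0.83 and -0.26), against -0.02 (quartiles -0.23 and 0.18) for all genes, and 116 of the 129 had a negative value. Against DPBS, 58 were lower and 0 higher, where 5.36% of all genes were called lower and 3.57% higher, and the median was -0.52. At an unadjusted p under 0.05 that comparison gave 84 lower and 1 higher, where 23.2% of all genes passed in either direction. Both references share the treated livers. The call was made against both for 43 very long genes, while 3.76% of all genes were lower against both. In 42 very long genes all 4 Upf3b-ASO livers lay below all 4 control ASO livers, an order seen in 7.69% of all genes. All 4 lay below all 4 DPBS livers in 73, against 12% of all genes. Without control ASO replicate 3, 78 very long genes were lower against control ASO, with 13.5% of all genes lower and 11% higher, and 91 lower and 2 higher against DPBS, with 15% of all genes lower and 13.7% higher. Which genes were measured depended on the TPM limit. Of the 129, 71 reached 5 TPM in all 12 livers, 16 reached it in no Upf3b-ASO liver, and 0 reached it in a single group only. Entry through the reference livers alone, as for these 16, favours lower values in Upf3b-ASO livers. In the 71, 22 were lower against control ASO (31%), where 6.04% of all 6527 genes at this level in all 12 livers were lower. The median log2 fold change of the 71 was -0.33, closer to 0 than the -0.45 of all 129.

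The 10 largest falls among called genes were those of Sugct, Slc25a21, Dpyd, Plcb1, Agmo, Babam2, Diaph2, Cpq, Gphn and Prr16. In all 10 the 4 Upf3b-ASO livers lay under all DPBS and control ASO livers. The 10 were picked by the size of the fall against control ASO, which favours such an order, so that it adds no support. Over all genes, 7.69% had these 4 livers below all control ASO livers and 12% had them below all DPBS livers. Sugct (chromosome 13, 16857472 to 17695553, minus strand), which encodes the mitochondrial enzyme that converts glutarate to glutaryl-CoA, fell by 3.90 ± 0.28 on the log2 scale (SE; edgeR adjusted p = 3.6e-05). It was at 16.8 to 20.9 CPM in DPBS livers, at 8.80, 17.4, 17.6 and 22.2 CPM in control ASO livers and at 1.29, 0.869, 1.47 and 0.728 CPM in Upf3b-ASO livers. Slc25a21 (chromosome 12, 56712634 to 57197472, minus strand), the mitochondrial carrier of oxodicarboxylates that arise from lysine and tryptophan, was at 11.04, 12.7, 6.56 and 10.3 CPM in control ASO livers and at 0.932, 1.09, 1.93 and 0.596 CPM in Upf3b-ASO livers. Its log2 fold change was -3.13 ± 0.30 (edgeR adjusted p = 0.000165). The falls of both genes left values near 1 CPM.

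Dpyd (chromosome 3, 118562129 to 119432924, plus strand) encodes dihydropyrimidine dehydrogenase, the first enzyme of pyrimidine breakdown, and spans 871 kb. It was at 391, 367, 473 and 410 CPM in DPBS livers and at 396, 426, 387 and 349 CPM in control ASO livers. In Upf3b-ASO livers it was at 65.0, 56.7, 84.7 and 41.3 CPM, which was -2.65 ± 0.20 against control ASO on the log2 scale (edgeR adjusted p = 4.3e-05). The 8 control livers overlapped each other and none came near the treated range. Agmo (chromosome 12, 37241641 to 37582202, plus strand), alkylglycerol monooxygenase, which cleaves ether lipids, was at 94.2, 105, 64.4 and 87.1 CPM in control ASO livers. It was at 17.5, 19.2, 14.7 and 10.0 CPM in Upf3b-ASO livers (log2 fold change -2.52 ± 0.14, edgeR adjusted p = 6.3e-06).

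Babam2 (chromosome 5, 31697684 to 32084962, plus strand), a scaffold subunit of the BRISC and BRCA1-A deubiquitinase complexes, had the lowest p of the 129 genes and little spread within groups. It was at 16.1 to 18.01 CPM in DPBS, at 13.9 to 16.7 CPM in control ASO and at 2.78 to 3.08 CPM in Upf3b-ASO livers (-2.36 ± 0.10 on the log2 scale, edgeR adjusted p = 1.1e-06). Plcb1 (chromosome 2, 134786067 to 135475258, plus strand), a phospholipase C that acts below G-protein-coupled receptors, was at 28.9 to 37.8 CPM in control ASO livers and at 6.45, 5.97, 5.20 and 3.05 CPM in Upf3b-ASO livers. Cpq (chromosome 15, 33083129 to 33594552, plus strand), a carboxypeptidase, was at 38.1 to 49.8 CPM in control ASO and at 9.60 to 16.1 CPM in Upf3b-ASO livers. Diaph2 (chromosome X, 129749742 to 130465834, plus strand), a formin that nucleates actin filaments, was at 14.6 to 26.2 CPM and at 4.90 to 7.49 CPM in the same groups. The log2 fold changes of these 3 genes were -2.62 ± 0.22, -1.71 ± 0.14 and -1.76 ± 0.13.

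Gphn (chromosome 12, 78226379 to 78684772, plus strand) encodes gephyrin, which completes the molybdenum cofactor and anchors inhibitory receptors at synapses. It was at 60.0 to 70.6 CPM in DPBS livers and at 52.0, 66.6, 21.3 and 63.5 CPM in control ASO livers. Replicate 3, at 21.3 CPM, lay close to the Upf3b-ASO livers at 15.7, 17.3, 19.2 and 13.7 CPM. The log2 fold change was -1.61 ± 0.28 (edgeR adjusted p = 0.0055), and without that replicate it was -1.87 ± 0.12. Prr16 on chromosome 18, from 51117733 to 51420044 on the plus strand, was at 7.78 to 16.5 CPM in control ASO and at 3.37 to 5.13 CPM in Upf3b-ASO livers (log2 fold change -1.56 ± 0.22). It reached 5 TPM in 7 livers. Its mean was 7.01 TPM in DPBS, 6.73 TPM in control ASO and 2.27 TPM in Upf3b-ASO livers. Mainly the reference livers thus brought it into the set, which favours a fall.

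**Figure D3:**
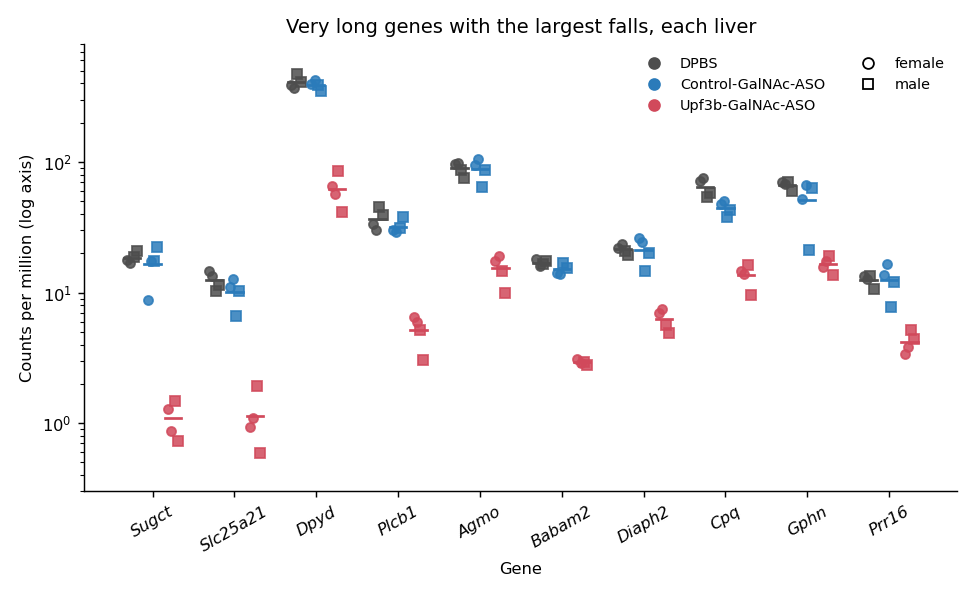
CPM on a log axis (vertical) for the 10 called very long genes with the largest falls (horizontal), 1 point per liver, circles for females and squares for males, with group means as bars. Sugct lies at 0.728 to 1.47 CPM in Upf3b-ASO livers and Gphn of control ASO replicate 3 at 21.3 CPM.

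By role, the called share was highest among metabolic enzymes and transporters and lowest among adhesion and cytoskeletal genes. Over all 129 genes it was 34.9% against control ASO and 45% against DPBS. Over all genes tested, 5.95 and 5.36% were called lower in these comparisons. Roles were assigned with the fold changes known, differences between roles were not tested, and members outside the 10 above are examples chosen after their values were seen. In 37 of the 45 called genes all 4 Upf3b-ASO livers lay below all 4 control ASO livers. Over all genes, 7.69% had this order. A call favours it, so that its mention for single genes in this and the next paragraphs adds no support. Of 17 metabolic enzymes and transporters, 9 fell (52.9%) and 8 did not pass the test, with a median log2 fold change of -0.81. Adk, adenosine kinase, had the highest mean TPM of the 129 genes. It was at 684, 641, 608 and 676 CPM in DPBS livers, at 714, 650, 533 and 597 CPM in control ASO livers and at 289, 301, 332 and 238 CPM in Upf3b-ASO livers, a fall by 53.3% (log2 fold change -1.10 ± 0.12, edgeR adjusted p = 0.00033). The Upf3b-ASO livers did not overlap with either other group, while DPBS and control ASO livers overlapped with each other. Fggy, a carbohydrate kinase, was at 68.0 to 136 CPM in control ASO and at 29.2 to 45.7 CPM in Upf3b-ASO livers (-1.40 ± 0.17). Msra, which repairs oxidized methionine, was at 96.9 to 106 and 57.8 to 83.2 CPM (-0.61 ± 0.09). The glycosyltransferase-like gene Gtdc1, the last of the 9, was at 10.4 to 14.9 and 6.55 to 9.06 CPM (-0.68 ± 0.14). No control ASO liver overlapped with an Upf3b-ASO liver in these 3 genes. Pcca, a subunit gene of mitochondrial propionyl-CoA carboxylase, was called against DPBS alone, at -0.55 there and -0.44 against control ASO.

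Of 30 genes of RNA and protein metabolism, trafficking and genome maintenance, 14 fell (46.7%), all 30 had negative values, and the median was -0.57. Besides Babam2 and Cpq these included Rabgap1l, Cadps2, Ube2e2, Rsrc1, Fars2, Fbxl17, Exoc4, Lrba, Trappc9, Sbf2 and the exoribonuclease gene Dis3l2. Rabgap1l was at 69.8 to 91.6 CPM in control ASO and at 24.8 to 37.0 CPM in Upf3b-ASO livers (-1.37 ± 0.12), and the groups did not overlap. Cadps2, which acts in the release of dense-core vesicles, was at 29.0 to 38.8 and 10.9 to 16.1 CPM (-1.33 ± 0.16). Rsrc1, a splicing-related gene, was at 15.7 to 22.3 and 8.67 to 10.7 CPM (-1.06 ± 0.12), and Ube2e2, a ubiquitin-conjugating enzyme gene, at 8.60 to 13.4 and 3.18 to 5.81 CPM (-1.11 ± 0.21). These 3 genes too did not overlap between the groups. Fars2, the mitochondrial phenylalanine tRNA ligase gene, was at 25.03 to 26.6 CPM in 3 control ASO livers and at 17.4 CPM in replicate 3, above 11.4 to 14.4 CPM in Upf3b-ASO livers (-0.87 ± 0.13). In Exoc4 (exocyst), Lrba and Trappc9 (trafficking complexes) replicate 3, at 15.9, 51.2 and 12.04 CPM, lay within the Upf3b-ASO range of 13.4 to 22.1, 41.8 to 52.7 and 9.87 to 12.1 CPM. Their log2 fold changes were -0.77, -0.60 and -0.59. Fbxl17, Sbf2 and Dis3l2 were separate between the groups, at -0.79, -0.52 and -0.45. Snd1, which encodes a nuclease and RNA-binding protein and had the highest mean TPM of these 30 genes, was at 153 to 170 and 121 to 148 CPM. Its log2 fold change was -0.25 ± 0.09 (edgeR adjusted p = 0.098) against control ASO, and -0.59 (edgeR adjusted p = 0.0028) against DPBS. Fto, an RNA demethylase gene, was likewise called against DPBS alone, at -0.33 there and -0.16 against control ASO.

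Of 27 signalling genes, 9 fell (33.3%, near the 34.9% of all 129), with a median of -0.42. They were Plcb1, Plce1, the GABA receptor gene Gabbr2, the guanine nucleotide exchange factor genes Dock4 and Psd3, Apbb2, the Hippo kinase gene Stk3 (log2 fold change -0.42 ± 0.11, a call lost in 11 of 12 fits that left out 1 liver), and the receptor tyrosine phosphatase genes Ptprg and Ptprk. Ptprg was at 40.8 to 55.6 CPM in control ASO and at 18.3 to 24.7 CPM in Upf3b-ASO livers (-1.13 ± 0.12), and Ptprk at 51.0 to 89.9 and 35.9 to 49.7 CPM (-0.68 ± 0.10). Gabbr2 was at 32.6 to 44.8 and 12.7 to 22.5 CPM (-1.24 ± 0.17), Dock4 at 23.9 to 40.8 and 14.1 to 17.6 CPM (-1.16 ± 0.17) and Apbb2 at 15.3 to 19.7 and 5.69 to 9.73 CPM (-1.12 ± 0.17). The groups were separate in these genes, and also in Ptprg and Ptprk. In Plce1 and Psd3 control ASO replicate 3, at 14.7 and 69.7 CPM, lay within the Upf3b-ASO range of 8.87 to 16.1 and 55.0 to 70.3 CPM (log2 fold changes -1.14 and -0.79). Rasgef1b, a Ras exchange factor gene, had the same liver far above the rest. It was at 166 CPM there and at no more than 47.1 CPM in any DPBS liver, and its log2 fold change of -1.62 ± 0.63 did not pass the test (edgeR adjusted p = 0.12). Without that liver it was -0.45 (edgeR adjusted p = 0.046). Itpr1, the gene of an intracellular calcium channel, was called against DPBS alone (-0.65 there, -0.30 against control ASO).

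Of 20 genes of transcription and chromatin, 4 fell against control ASO and 10 against DPBS, where 5.95 and 5.36% of all genes tested did. All 20 had negative values against control ASO (median -0.48). Those called against control ASO were Sox5, the chromatin remodelling subunit gene Arid1b, Cux1 and Zfp407. Arid1b was at 38.5 to 47.1 CPM in control ASO and at 23.4 to 26.4 CPM in Upf3b-ASO livers (-0.77 ± 0.10), and Cux1 at 26.7 to 34.8 and 17.3 to 22.1 CPM (-0.56 ± 0.09). Zfp407 was at 21.2 to 26.4 and 14.8 to 19.8 CPM (-0.43 ± 0.11), and its value was 0.0018 with TPM rescaled to the joined genes. Sox5 overlapped with control ASO replicate 3, at 8.00 CPM, while the other control ASO livers were at 21.2 to 25.1 CPM and the Upf3b-ASO livers at 7.28 to 11.8 CPM. Zbtb20, a repressor of alpha-fetoprotein, and Nr3c2, the mineralocorticoid receptor gene, were called against DPBS alone, at log2 fold changes of -0.88 and -0.87 there and -0.60 and -0.57 against control ASO. Foxp1, a forkhead repressor, was likewise at -0.45 and -0.25.

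Adhesion, polarity, matrix and cytoskeletal genes were called least often, 4 of 23 (17.4%), with a median of -0.29. These were Diaph2, Lpp, Patj and the dystrophin relative Utrn, which was at 92.7 to 114 CPM in control ASO and at 54.8 to 77.4 CPM in Upf3b-ASO livers (-0.73 ± 0.11). Lpp, a focal adhesion gene, was at 88.4 to 160 and 42.1 to 77.3 CPM. Magi1, a scaffold of cell junctions, was called against DPBS alone (-1.14 there, -0.66 against control ASO). Dmd itself, whose log2 fold change was -0.37, was not called (edgeR adjusted p = 0.19). Of the 12 genes with another or no assigned role, 5 fell, namely Prr16, Dip2c, Bcas3, 2010111I01Rik and Atrnl1. Dip2c was at 37.6 to 46.6 CPM in control ASO and at 14.4 to 21.2 CPM in Upf3b-ASO livers (-1.32 ± 0.13), and Atrnl1 at 63.5 to 74.4 and 35.1 to 41.6 CPM (-0.83 ± 0.11). Bcas3 was at 17.2 to 22.9 and 9.55 to 11.7 CPM (-1.03 ± 0.11). 2010111I01Rik was at 30.3 to 45.0 and 15.4 to 22.4 CPM, but the DPBS livers at 22.6 to 26.5 CPM lay close to the latter, and it was not called against DPBS (-0.38). Patj was also called against control ASO alone, at -0.29, and was at -0.08 against DPBS.

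**Figure D4:**
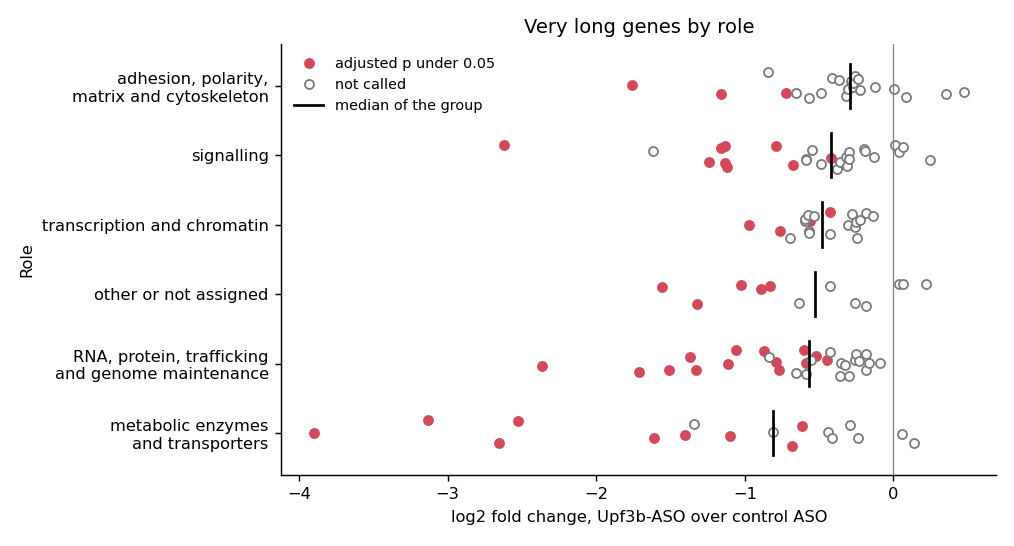
The log2 fold change of Upf3b-ASO over control ASO (horizontal axis) for each of the 129 very long genes, by role (vertical axis, points scattered within a row for legibility). Red points have an edgeR adjusted p under 0.05 and black bars are medians, from -0.81 for metabolic enzymes and transporters to -0.29 for adhesion and cytoskeletal genes.

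The 13 very long genes with positive values did not pass the test. The highest was Sorbs2, an adaptor of actin and adhesion sites, at 0.47 ± 0.26 (edgeR adjusted p = 0.26). It was at 58.4 to 76.7 CPM in Upf3b-ASO livers and at 66.1, 61.1, 20.5 and 58.7 CPM in control ASO livers, where replicate 3 was low. Syne1, which links the nucleus to the cytoskeleton, followed at 0.35 ± 0.18 (edgeR adjusted p = 0.22).

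The largest annotated spans did not belong to the largest falls. Gm20388 (chromosome 8, 119910841 to 124345722, plus strand) spans 4435 kb and was at -0.64 ± 0.22 on the log2 scale (edgeR adjusted p = 0.095). Fgfr2 (chromosome 7, 130162451 to 133123350, minus strand), a receptor for fibroblast growth factors, spans 2961 kb and was at 0.01 ± 0.34 (edgeR adjusted p = 0.99). Ptprd (chromosome 4, 75941238 to 78211961, minus strand), another receptor tyrosine phosphatase, spans 2271 kb and was at -0.49 ± 0.25 (edgeR adjusted p = 0.23). The most abundant transcripts of Fgfr2 and Ptprd span 5.00 and 185 kb, far less than the genes. At the limit itself, Pam (300.5 kb), Prr16 (302.3 kb) and Stk3 (303.4 kb) were members with log2 fold changes of -0.29, -1.56 and -0.42. Just under it, Rptor (296.7 kb), Asap1 (296.1 kb) and Trio (295.2 kb) were at -0.34, -0.26 and -0.26.

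Gene span need not be the span of the transcript that liver uses most. In 56 very long genes the most abundant transcript itself spans 300 kb or more, and 31 of these were called lower against control ASO. Of the other 73, 14 were. The median of the 56 was -0.65 (log2). This split was chosen after the data were seen and was not tested. Among the 129, rho between log2 fold change and the span of the main transcript was -0.29 for Upf3b-ASO against control ASO, -0.45 for Upf3b-ASO against DPBS and -0.39 for control ASO against DPBS, comparisons that share livers. With mRNA length it was 0.04, -0.05 and -0.13 among the 129. Across the 8499 protein-coding genes, rho with mRNA length was -0.14, -0.21 and -0.06 in the same order, beside -0.20, -0.27 and -0.07 with gene span. The called genes had a median main transcript span of 382 kb, a median longest intron of 117 kb and a median mRNA length of 2769 bases. The genes not called had medians of 136 kb, 59.1 kb and 2737 bases. Over all genes tested, the medians were 15.8 kb, 5.36 kb and 2016 bases. Gene span and mRNA length could also be held apart by class. Among genes with an mRNA under 2 kb, the median log2 fold change was -0.03 in 784 genes of 30 to 100 kb, -0.18 in 235 genes of 100 to 300 kb and -0.56 in 50 very long genes. Among genes with an mRNA of 6 kb and over, it was -0.09 in 300, -0.20 in 202 and -0.40 in 32 genes of the same spans. The mean level differed little, with a median of 10.4 TPM in called and 11.4 TPM in other very long genes.

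To determine whether long and short transcripts of the same gene changed together, 32673 transcripts were tested. Of 493 from very long genes, 31 were lower and 1 was higher in Upf3b-ASO than in control ASO livers, where 0.673% of all transcripts were lower and 0.327% higher. Of 149 that span 300 kb or more, 26 were lower (17.4%) and the median log2 fold change was -0.58. Of 142 that span 100 to 300 kb, 4 were lower (2.82%, median -0.37), and of 202 under 100 kb, 1 was lower (0.495%, median -0.28). Salmon divides reads among transcripts that share exons, so that these values are estimates that depend on each other within a gene. Transcripts annotated as targets of nonsense-mediated decay in these genes had a median of -0.52 (24 tested, 1 lower or 4.17%). The median was 0.06 for all 1834 of this type (0.273% lower) and -0.39 for all 493 transcripts of the very long genes (6.29% lower). The transcript that rose starts 342 kb into Oxr1, a gene of resistance to oxidation, and spans 71.5 kb. It was at 0.930 to 1.27 TPM in control ASO and 1.84 to 2.98 TPM in Upf3b-ASO livers (edgeR adjusted p = 0.032).

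The transcripts of Dpyd changed unequally. The full transcript, which spans 871 kb, was at 109, 110, 71.6 and 82.8 TPM in control ASO livers and at 15.2, 14.1, 18.1 and 7.86 TPM in Upf3b-ASO livers (log2 fold change -2.79 ± 0.21, edgeR adjusted p = 0.00037). A shorter transcript starts at the same end of the gene and stops after 113 kb. It was at 12.8, 10.8, 1.77 and 5.01 TPM in control ASO livers and at 15.7, 12.5, 7.14 and 6.74 TPM in Upf3b-ASO livers (0.56 ± 0.39, edgeR adjusted p = 0.63). The share of Dpyd TPM on transcripts of 300 kb or more was 84.5 ± 3.67% in control ASO livers and 44.7 ± 7.87% in Upf3b-ASO livers (SD, n = 4). In Plcb1 that share was 46.2 ± 4.56 and 11.9 ± 10.8%. A 6.34 kb transcript that lies inside Plcb1 was at 3.14 to 4.04 TPM and at 0.934 to 3.86 TPM in these groups. In Agmo the full transcript was at 21.4 to 50.1 and 2.95 to 8.51 TPM, while another, which begins near the gene start and spans 2.75 kb, was at 0.339 to 1.62 and 0 to 2.20 TPM. The full transcript of Babam2 was at 3.26 to 5.95 and 0.437 to 1.10 TPM, while another that stops after 133 kb was at 1.43 to 5.77 and 1.38 to 1.93 TPM.

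**Figure D5:**
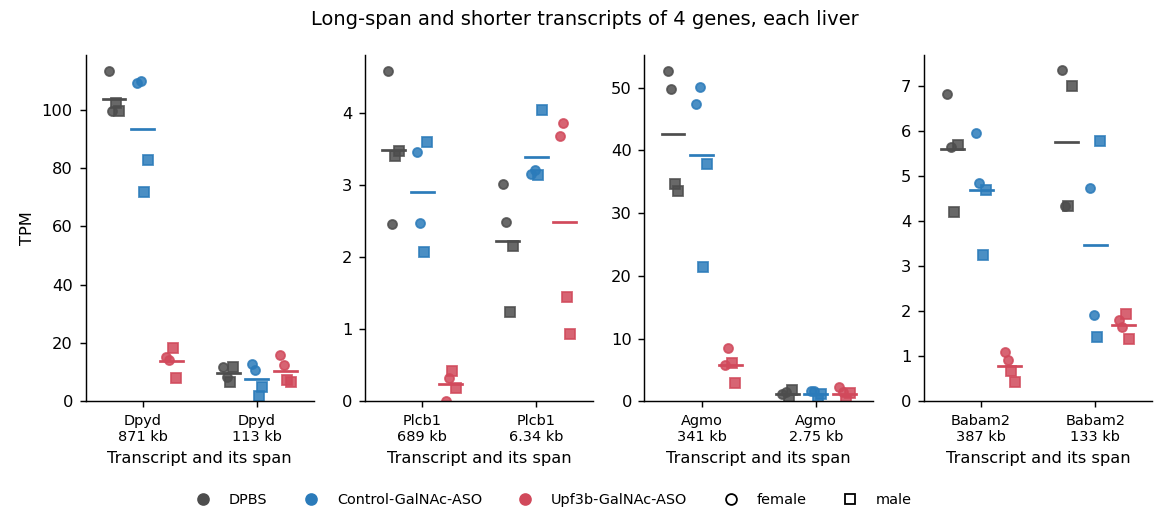
TPM (vertical axes, separate scales from 0) of a transcript of 300 kb or more and a shorter transcript in each of 4 genes, 1 point per liver, circles for females and squares for males, bars for group means. The 871 kb transcript of Dpyd lies at 7.86 to 18.1 TPM in Upf3b-ASO livers, while the 113 kb one overlaps with the control ASO livers.

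These 4 genes were chosen after their values were seen, and the pattern was not general. In the 65 very long genes with transcripts of both kinds, the share on the long kind was lower in Upf3b-ASO than in control ASO livers in 33 and higher in 32, with a median difference of -0.27 percentage points. The TPM of the long kind was 0.764 of the control ASO mean at the median and that of the shorter kind 0.801. Shorter transcripts that begin within 50 kb of the gene start had a median log2 fold change of -0.23 (90 transcripts). Those that begin farther in and reach within 50 kb of the gene end had one of -0.36 (149 transcripts).

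The scrambled control ASO was compared with DPBS as the background of ASO treatment. By edgeR at an adjusted p under 0.05, 0 of 129 very long genes differed, and 0.0113% of all genes did. At an unadjusted p under 0.05 there were 12 (9 lower), where 6.97% of all genes passed. DESeq2 called 1 (0.775%), Cpq, at a log2 fold change of -0.52 (adjusted p = 0.028), which edgeR gave as -0.53 (adjusted p = 0.57). Over all genes DESeq2 called 0.283% lower and 0.226% higher in this comparison, so that 1 call is near the share of all genes. The median of the very long genes was -0.11, against 0.01 for all genes, and 92 of 129 had negative values. Without control ASO replicate 3 the median was -0.05. In that liver alone, 90 of the 129 genes lay under the mean of the other control ASO livers, with a median log2 ratio of -0.29 against -0.03 for all genes. Metabolic enzymes and transporters, the role called most often under the Upf3b-ASO, had a median of -0.07 under the control ASO.

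Between the sexes, 15 very long genes were lower in males and 1 was higher (edgeR adjusted p under 0.05, 6 livers per sex), where 5.73% of all genes were lower and 4.3% higher. The median log2 difference of males from females was -0.14 over the 129 genes and 0.01 over all genes, and without control ASO replicate 3 there were 26 lower and 7 higher, with 11.5 and 10.4% of all genes. Of the first 16, 5 were also lower in Upf3b-ASO livers, where 34.9% of the 129 very long genes were lower against control ASO. The differences described here were those of genes not called between Upf3b-ASO and control ASO livers. Fmn1, another formin, was at 30.1 ± 6.67 CPM in females and 12.7 ± 6.57 CPM in males (SD, n = 6). Camk1d, a calcium-dependent kinase, was at 131 ± 23.0 and 55.7 ± 20.5 CPM, and Ncald, a calcium sensor, at 22.6 ± 2.35 and 12.4 ± 1.91 CPM. Rarb, a retinoic acid receptor, was at 11.7 ± 2.06 and 6.79 ± 0.881 CPM. The log2 differences of males from females were -1.35, -1.29, -0.88 and -0.79 in this order. Foxn3, a forkhead repressor, was the gene higher in males, at 37.4 ± 2.83 CPM in females and 53.3 ± 12.4 CPM in males (0.50). This call depended on single livers. In most fits that left out 1 liver, 0 very long genes were called higher in males. An effect of the Upf3b-ASO that differed between the sexes was found in 0 of 129 very long genes and 0% of all genes by edgeR, and in 0 of the 129 by DESeq2. At an unadjusted p under 0.05 there were 12, where 7.31% of all genes passed. Without control ASO replicate 4, the only other male control ASO liver beside replicate 3, edgeR called 50 of the 129 and 3870 of all genes. In the share of counts on very long genes, males lay below females in each of the 3 groups, with values given above.

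The labelled tissue and the other cell types were checked by marker lists. The 12 hepatocyte markers summed to 82324 to 120157 CPM in control ASO and 76036 to 118673 CPM in Upf3b-ASO livers. The summed levels of markers of macrophages, sinusoidal endothelium, stellate cells and fibroblasts, cholangiocytes and lymphocytes also overlapped between these groups, as did those of erythroid cells. Of the markers tested, 1 of 12 for hepatocytes, 0 of 11 for macrophages, 0 of 11 for endothelium and 1 of 7 for stellate cells and fibroblasts were called against control ASO, each of the 2 lower. The stellate list holds 1 of the very long genes, and no listed marker was at 0 in all livers. Erythroid markers reached 3052 CPM in 1 control ASO liver, against at most 555 CPM in Upf3b-ASO livers. How these levels bear on the very long genes was not tested. In control ASO replicate 3, endothelial markers summed to 438 CPM and stellate and fibroblast markers to 308 CPM, each the lowest of all livers. Macrophage markers at 403 CPM and lymphocyte markers at 19.2 CPM were also lowest there. Cholangiocyte markers, at 43.3 CPM, were the highest of all livers. Of 51 genes of transcription elongation, U1 recognition, topoisomerases and RNA-binding proteins linked to long genes, 41 were tested, 1 was lower, 1 was higher and the median log2 fold change was -0.01. Both counts are no higher than the shares of all genes called, 5.95% lower and 4.34% higher, would give. Cdk13, a kinase of the polymerase II tail, was at 62.4 to 82.6 CPM in control ASO and at 41.6 to 47.8 CPM in Upf3b-ASO livers (-0.65 ± 0.10, edgeR adjusted p = 0.0027). Tardbp, the gene of the RNA-binding protein TDP-43, was at 43.0 to 50.8 and 64.6 to 68.5 CPM (0.48 ± 0.08, edgeR adjusted p = 0.0051). Whether either bears on the very long genes was not tested.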

How the data were processed

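Liver RNA of 12 hFIX-R29X mice was analysed. The authors made TruSeq libraries, converted base calls with bcl2fastq 2.17.1.14 and quantified transcripts with Salmon 0.7.2 against Ensembl cDNA of GRCm38. The deposited files hold 1 animal each and give estimated counts and TPM per transcript, without pooling. Of 92468 transcripts, 98.1% were joined to GENCODE M21, and they held 97.5 to 99.3% of the counts of a liver. For each gene the estimated counts of its transcripts were added up and the sum was rounded. CPM are counts per TMM-scaled library.

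Genes were tested with edgeR 4.0.16 (quasi-likelihood, TMM, sex as covariate, all 12 livers), with Benjamini-Hochberg adjustment over 8846 genes and a threshold of 0.05. Transcripts were tested likewise at 1 TPM or more in at least 4 livers. The scripts were tested on simulated data. Standard errors were derived from the F statistic. Estimated counts totalled 13277892 to 20387682 per liver, and precision at low levels is set by these counts and by the spread between animals. DESeq2 1.42.0 and limma 3.58.1 on log2(TPM + 1) were among the alternatives.

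Gene lists and members were chosen with earlier results of these data known, and roles were assigned with the members and their results known, replacing shorter role lists. Named genes were the 10 largest falls and rises called (0 rises), up to 5 called per direction for the control ASO and the sexes, 3 at each side of the span limit, the 3 largest spans, called genes of the transcription list and any member near an ASO site. Some genes that this rule names are not reported here. Livers with the same replicate number, which also share a sex, deviated together (correlation 0.20 to 0.61), as did other animals of the same sex (mean 0.48 against 0.49). Within a sex the correlation ran from -0.11 to 0.18, so that the numbers were not taken as pairs. The GalNAc-ASO sequences were taken to be those of the parent ASOs. The labels give no batch and name separate animals.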

Additional observations from a re-analysis of the deposited data

Results flagged for a closer look

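Of 228 groups of 4 livers searched, 11 held a liver far from the rest by Dixon's test, and chance gives about 1 in 20, or 11.4. Control ASO replicate 3 was that liver in 7. There Utrn was at 92.7 CPM (the rest of its group 113 to 114), Fars2 at 17.4 CPM (25.03 to 26.6), Psd3 at 69.7 CPM (125 to 129) and Sorbs2 at 20.5 CPM (58.7 to 66.1). Higher there were Cux1 at 34.8 CPM (26.7 to 27.3), 2010111I01Rik at 45.05 CPM (30.3 to 32.6) and Gm20388 at 56.7 CPM (32.1 to 33.5). In DPBS replicate 3, Psd3 was at 131 CPM (125 in the rest) and Dock4 at 47.3 CPM (35.0 to 37.1). Dis3l2 was at 12.8 CPM in Upf3b-ASO replicate 2 (15.3 to 15.8) and Bcas3 at 11.7 CPM in Upf3b-ASO replicate 3 (9.55 to 9.75).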

How the results depend on the processing

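The median log2 fold change of the very long genes against control ASO stayed negative under every alternative run, from -0.26 to -0.65. Leaving out 1 liver at a time gave 37 to 78 called against control ASO, 44 to 93 against DPBS, 0 to 0 for control ASO against DPBS, 8 to 33 between the sexes, 0 to 50 for the interaction of sex and ASO and 11 to 54 transcripts. The medians ran from -0.51 to -0.39 against control ASO and from -0.16 to -0.05 for control ASO against DPBS, and the share of counts in Upf3b-ASO over control ASO livers from 0.686 to 0.788. The highest count against control ASO, 78, was without control ASO replicate 3, and the 50 interaction calls were without control ASO replicate 4, when 3870 of all genes were called. Over all genes, leaving out 1 liver gave 2.91 to 13.5% lower against control ASO and 2.85 to 15% against DPBS. Between the sexes it gave 6.57 to 21.9% of all genes called in either direction.

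Counts against control ASO, against DPBS and between the sexes were 27, 36 and 63 with limma on log2(TPM + 1), where 3.92, 3.67 and 34.6% of all genes were called. They were 27, 35 and 62 on log2(TPM + 0.1) (3.78, 3.54 and 33.6% of all genes), and 27, 32 and 45 with TPM rescaled to joined genes (6.93, 4.39 and 24.7%), where the median was -0.26. On these 3 scales the all-gene median moved to 0.06, 0.07 and 0.15 against control ASO and to -0.29, -0.31 and -0.25 between the sexes, and all 63, 62 and 45 sex calls were lower in males. Without a TPM filter they were 71, 89 and 31 of 472 (4.22, 3.92 and 5.11% of all genes), at a span limit of 200 kb 74, 93 and 31 of 279, and at 500 kb 17, 24 and 5 of 44 (median -0.62), beside the unchanged 10.3, 8.93 and 10% of all genes. Genes at 5 TPM in all 12 livers gave 22, 30 and 9 of 71 (10.2, 8.67 and 9.44% of all genes at this level). Genes whose main transcript spans 300 kb gave 38 against DPBS, 7 between the sexes and a median of -0.65. The rescaling, the main-transcript and the 12-liver settings were chosen after the data were seen. A fit of only the groups compared gave 90 against DPBS (28% of all genes). DESeq2, and including the 6 genes left out by name, each gave 1 for control ASO against DPBS (0.509 and 0.0113% of all genes). DESeq2 called 65 transcripts of the very long genes. The share of all transcripts called is not given here for this fit, the replicate block or the fits without 1 liver. These transcript counts therefore show only how the calls move with the processing. The numbers did not pair the livers, and with the replicate block 41 genes were called against control ASO, 52 against DPBS (7.9 and 6.85% of all genes) and 16 transcripts, fewer than the 32 without it.

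Zfp407, at 0.0018 with rescaled TPM, was the only called gene among those named whose sign changed. On the limma scales with 1, 0.1 and rescaled TPM, Snd1 was at 0.00699, 0.00711 and 0.10, Asap1 at 0.079, 0.089 and 0.16, Foxn3 at 0.083, 0.086 and 0.17, and Fmn1 at 0.068, 0.23 and 0.14. Camk1d was at -0.0298 and -0.0175 on the first 2 and Rptor at 0.0238 and Fto at 0.0175 on the last. With a transcript length offset Fgfr2 was at -0.093, Foxn3 at 0.0082, Camk1d at -0.17 and Fmn1 at 0.074. Without the sex covariate Fgfr2 was at -0.0212 and Camk1d at -0.16. With 1 liver left out, Fgfr2 ran from -0.30 to 0.35, Foxn3 from -0.23 to 0.056 and Camk1d from -0.16 to 0.29. The values on the other side of 0 were -0.30, -0.0027, -0.0095 and -0.080 for Fgfr2, 0.056 for Foxn3, and -0.16, -0.0429 and -0.0272 for Camk1d. Among called genes, Sox5 lost its call under 15 of 23 alternatives, Stk3 under 19, Patj under 12, Zfp407 under 11 (besides its change of sign), Exoc4 under 10 and Trappc9 under 8 of 22. The cause was not tested.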
